A study of Mus musculus with 4 samples.

Results

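Oxidative phosphorylation is carried out by 5 protein complexes of the inner mitochondrial membrane. The genes described here are those that carry the nuclear-encoded subunits of these complexes, chosen by the start of their symbol: Ndufa, Ndufb, Ndufc, Ndufs or Ndufv followed by a digit and Ndufab1 for complex I, Sdha to Sdhd for complex II, Uqcr for complex III, Cox4 to Cox8 for complex IV, and Atp5 for complex V. The rule found 85 of 20599 genes, of which 38 fell in complex I, 4 in complex II, 8 in complex III, 18 in complex IV and 17 in complex V. Their transcripts were counted by RNA-Seq in peritoneal B1a cells (n = 2) and splenic follicular B2 cells (n = 2) of wild-type C57BL/6 mice that received no treatment. B1a cells are self-renewing innate-like B cells of the body cavities, and follicular B2 cells are the recirculating B cells of the spleen and lymph nodes. By the methods, B1a cells were sorted as CD23- IgM+ CD5+ B cells and B2 cells as IgDhi IgMlo CD21+ B cells. The methods also name littermates of conditional Dnmt3a knockout mice as the donors. The labels give an age of 4 weeks for all 4 samples, whereas the methods give an older age for the B2 donors, so cell type, tissue and possibly age cannot be told apart.

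Complexes I and II take electrons from NADH and succinate, respectively, and pass them to ubiquinone. Complex III passes them on to cytochrome c and complex IV to oxygen, and complexes I, III and IV pump protons while they do so. Complex V, the ATP synthase, lets the protons flow back and uses their energy to make ATP. All subunits of complex II and most subunits of the other complexes are encoded in the nucleus. Each complex is built with the help of assembly factors, and NRF1, GABP, YY1 and the estrogen-related receptors are factors known to act on promoters of these genes.

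Promoters of 5 of the genes are printed to show the sequence in front of the member that differed between the cell types and in front of members of complexes I, III, IV and V that carried a match to a known factor. Each run holds the 120 bases before a transcription start of the RefSeq annotation of GRCm38.p6, read 5′ to 3′ on the strand of the gene. Capitals mark TGCGCA, the core of the NRF1 site, or CCGGAAG, a GABP (ETS) site, on either strand. The windows were chr7:25619294-25619413 (plus strand) for Atp5sl, chr15:82354292-82354411 (minus strand) for Ndufa6, chr4:116075071-116075190 (minus strand) for Uqcrh, chr5:115348959-115349078 (minus strand) for Cox6a1 and chr15:102671048-102671167 (minus strand) for Atp5g2.
Atp5sl: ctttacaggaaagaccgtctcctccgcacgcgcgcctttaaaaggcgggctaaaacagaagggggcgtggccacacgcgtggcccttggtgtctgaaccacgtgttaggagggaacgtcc
Ndufa6: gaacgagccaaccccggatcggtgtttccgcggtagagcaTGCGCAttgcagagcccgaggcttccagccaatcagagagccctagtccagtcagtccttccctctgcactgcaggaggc
Uqcrh: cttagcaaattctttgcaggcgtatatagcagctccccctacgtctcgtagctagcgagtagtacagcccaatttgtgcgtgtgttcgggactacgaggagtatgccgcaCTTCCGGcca
Cox6a1: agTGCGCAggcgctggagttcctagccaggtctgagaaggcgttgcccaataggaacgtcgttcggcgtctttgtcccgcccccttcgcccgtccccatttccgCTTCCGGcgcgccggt
Atp5g2: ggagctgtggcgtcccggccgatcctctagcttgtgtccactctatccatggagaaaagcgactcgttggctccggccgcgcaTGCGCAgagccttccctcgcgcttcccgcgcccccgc

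Neither motif, nor AAGATGG (YY1) or AAGGTCA (the site of estrogen-related receptors), was found in the Atp5sl run, and this window lies within the lncRNA gene Gm38969. RefSeq gives Atp5sl a second start inside the gene, whose window is not printed and carried AAGATGG 53 bases before that start. The promoter table held 76 windows for 70 of the 85 genes, each from 250 bases before to 50 bases after a start. TGCGCA, which is its own reverse complement, was found in 25% of the members' windows and in 7.76% of all 32851 windows. CCGGAAG was found in 21.1% and 8.86%, AAGATGG in 17.1% and 6.34%, and AAGGTCA in 10.5% and 4.72%, respectively, on either strand. These shares describe letters in the windows, and base composition was not matched between the sets.

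The libraries held from 11032732 to 18588623 counts. A floor of 3 counts equals 0.161 to 0.272 CPM, the count of a gene scaled to a common library size, and covers counting error alone because reads were not tagged as single molecules. The log2 CPM of all tested genes correlated with r = 0.836 between the B1a libraries and with r = 0.966 between the B2 libraries (across genes, which are not independent replicates), so the B1a libraries differed more from each other. The defining B-cell markers were present in every library, and the B2 marker Fcer2a (CD23) lay at 63.7 and 61.0 CPM in B1a cells and at 934 and 896 CPM in B2 cells. The summed level of 8 macrophage genes was 212 and 242 CPM in B1a cells and 67.3 and 68.7 CPM in B2 cells, that of 5 erythroid genes was 78.8 and 504 CPM and 36.1 and 80.8 CPM, that of 7 T-cell genes was 108 and 68.8 CPM and 86.3 and 84.6 CPM, and that of 4 plasma-cell genes was 301 and 324 CPM and 137 and 178 CPM. All 4 mast-cell genes together lay at 19.2 and 8.72 CPM in B1a cells and at 1.47 and 0.941 CPM in B2 cells, with Fcer1a at 0 in every library, and 3 neutrophil genes lay at 0 in both B1a libraries and at 1.21 and 6.64 CPM in B2 cells. The genes of a list did not all go the same way. In B1a cells Mzb1 made most of the plasma-cell sum, at 219 and 221 CPM against 60.4 and 70.2 CPM in B2 cells. Sdc1 lay at 0 and 8.27 CPM against 13.4 and 25.2 CPM. Lyz2 made most of the macrophage sum in B1a cells, at 127 and 136 CPM against 16.8 and 27.2 CPM, while Csf1r lay at 16.9 and 21.9 CPM against 21.2 and 18.3 CPM. The part of the cells marked by these lists in the levels given below was not tested, and in bulk samples fewer cells of a type and less RNA per cell cannot be told apart.

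The subunit genes took nearly the same part of the transcripts in both cell types. Levels are given as TPM, the share of all transcripts after reads are divided by transcript length, which allows genes to be compared within a library. Summed over the 85 genes, the level was 9774 and 10512 TPM in the B1a libraries and 9748 and 9885 TPM in the B2 libraries, or between 0.975% and 1.05% of all transcripts. The groups overlapped, and the ratio of the B1a mean to the B2 mean was 1.03. With 2 libraries against 2, an exact permutation test cannot give a two-sided p below 0.333, so no sum was tested.

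Complex IV, cytochrome c oxidase, had the highest ratio of the 5 complexes, and both B1a libraries lay above both B2 libraries. It lay at 2339 and 2651 TPM in B1a cells and at 2275 and 2123 TPM in B2 cells, a ratio of 1.13. Complex I lay at 3149 and 3069 TPM against 2994 and 2975 TPM, without overlap and with a ratio of 1.04. Complex III lay at 1035 and 1202 TPM against 994 and 1154 TPM, a ratio of 1.04 with overlap. Complex II lay below in B1a cells, at 373 and 354 TPM against 375 and 391 TPM, a ratio of 0.949. The sums of complex V overlapped, at 2877 and 3237 TPM against 3110 and 3242 TPM, a ratio of 0.962. Counting Ndufa4 and Ndufa4l2 with complex IV, where the protein NDUFA4 is now placed, and leaving out Atp5s and Atp5sl, whose products are not structural subunits of the ATP synthase, gave ratios of 1.05 for complex I, 1.11 for complex IV and 0.982 for complex V.

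**Figure D1:**
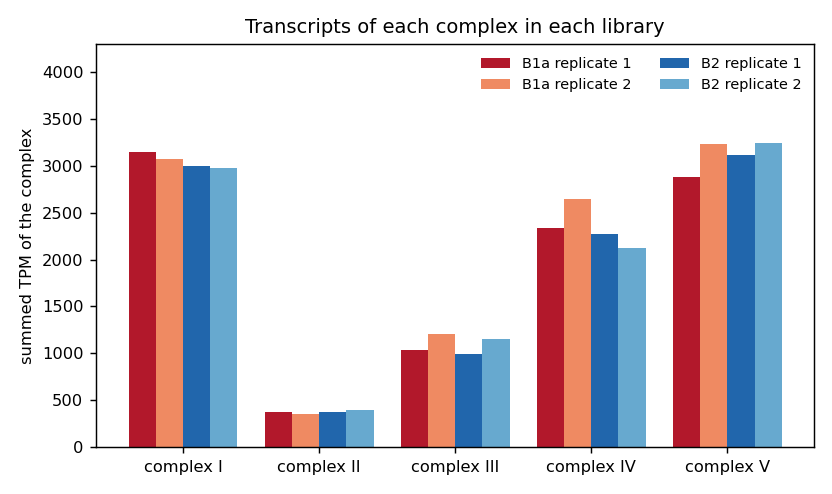
Summed level of each complex in TPM (bars start at 0), with 1 bar for each library. Complexes I, IV and V sit between about 2123 and 3242 TPM in every library and complex II between 354 and 391 TPM, and the B1a bars of complex IV, at 2339 and 2651 TPM, stand above both B2 bars.

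TPM is a share, and ribosomal protein genes took 21.2% and 22.4% of it in B1a cells against 15.3% and 15.6% in B2 cells, while replication-dependent histone genes took 1.74% and 1.62% against 0.960% and 1.19%. With both families left out of the total, the subunit genes summed to 12682 and 13838 TPM in B1a cells and to 11635 and 11886 TPM in B2 cells, without overlap. The B1a to B2 ratio was then 1.13 over all subunit genes, 1.14 for complex I, 1.03 for complex II, 1.14 for complex III, 1.24 for complex IV and 1.05 for complex V. This step multiplies every sum of a library by the same factor, so the ratios of all complexes rose together. On that scale the ratios of complexes II and V lay on the other side of 1. The order of the complexes is no separate result, because a shared factor leaves it nearly fixed.

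Genes were tested one by one with edgeR's quasi-likelihood test on counts, with Benjamini-Hochberg adjustment over 12078 genes that had enough counts, 77 subunit genes among them. At an adjusted p under 0.05, 5.74% of all tested genes were called, 4.24% as higher in B1a cells and 1.5% as higher in B2 cells. Among the 77 subunit genes, 0 had a higher level in B1a cells by this call and 1 (1.30%), Atp5sl, a higher level in B2 cells. At an unadjusted p under 0.05, 9 members (11.7%) were higher in B1a cells and 1 (1.30%) in B2 cells, against 11.7% and 9.22% of all tested genes. DESeq2, which called 12.9% of all tested genes, called Cox4i1 higher in B1a cells and Atp5sl higher in B2 cells. The 95% interval of the log2 fold change lay within a 2-fold difference in either direction for 20 of the 77 genes and reached beyond it for 57. Without B1a replicate 1 the same test called 19 members (24.7%) higher and 4 (5.19%) lower in B1a cells, while 33.6% of all tested genes were called, 16.8% in each direction. Without B1a replicate 2 it called 17 (22.1%) and 13 (16.9%), while 51.7% of all tested genes were called, 22.6% as higher and 29.04% as lower. Without B2 replicate 1 or B2 replicate 2 it called 0 and 0, while 4.53% and 4.68% of all tested genes were called. In these fits the remaining library of a cell type is assumed to vary like the libraries of the other.

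Atp5sl (annotated as Dmac2 in RefSeq, chr7:25619414-25625550, GRCm38) encodes a factor known for the assembly of complex I and carries an ATP synthase name from its resemblance to Atp5s. Its level was 46.3 and 40.02 CPM in B1a cells and 107 and 87.9 CPM in B2 cells. Both B1a libraries lay well below both B2 libraries, and the log2 fold change of B1a over B2 was -1.18 ± 0.224 (SE), with a 95% interval from -1.73 to -0.62 and an adjusted p of 0.0403 by edgeR with Benjamini-Hochberg adjustment. Per length, it lay at 46.1 and 38.9 TPM against 127 and 102 TPM. The call held in 11 of the 13 other ways of processing that kept all 4 libraries, and the adjusted p was 0.0512 with the trend on transcript length removed and 0.0590 with limma on log2(TPM + 1) without a filter. It was lost without B2 replicate 1 (edgeR adjusted p = 0.448) and without B2 replicate 2 (edgeR adjusted p = 0.12). The gene overlaps the lncRNA Gm38969, and the reads of overlapping genes may not be told apart, since the use of strand in counting is not given in the sources used here.

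Cox4i1 (chr8:120668225-120674209), which encodes the widely expressed isoform of subunit 4 of cytochrome c oxidase, was the most abundant of the 85 genes, with a mean of 453 TPM over the 4 libraries. Its level was 125 and 168 CPM in B1a cells and 79.9 and 86.5 CPM in B2 cells. The groups did not overlap, but the log2 fold change of 0.82 ± 0.202 (SE, 95% interval 0.32 to 1.31) did not pass the test, with an edgeR adjusted p of 0.0875. It was called in 4 of the 13 other ways of processing that kept all libraries, where the adjusted p ranged from 0.0115 to 0.173.

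Among the 77 tested genes, both B1a libraries lay above both B2 libraries in 29 (37.7%) and below them in 7 (9.09%) on the CPM scale, against 25.3% and 29% of all tested genes. On the TPM scale the same counts were 17 and 15 of the 77 members, against 2078 (17.2%) and 5090 (42.1%) of all 12078 tested genes. The log2 fold change was positive for 53 members and negative for 24, with a median of 0.28 and quartiles of -0.11 and 0.52, whereas the median over all tested genes was -0.03. The sign of the members' median turned on the TPM scale, where limma on log2(TPM + 1) gave -0.023 for 80 members and -0.30 for all 12027 genes kept on that scale, a shift of the whole distribution. By complex, the median was 0.24 for complex I (37 genes), 0.22 for complex II (4 genes), 0.21 for complex III (8 genes), 0.41 for complex IV (11 genes) and 0.28 for complex V (17 genes).

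**Figure D2:**
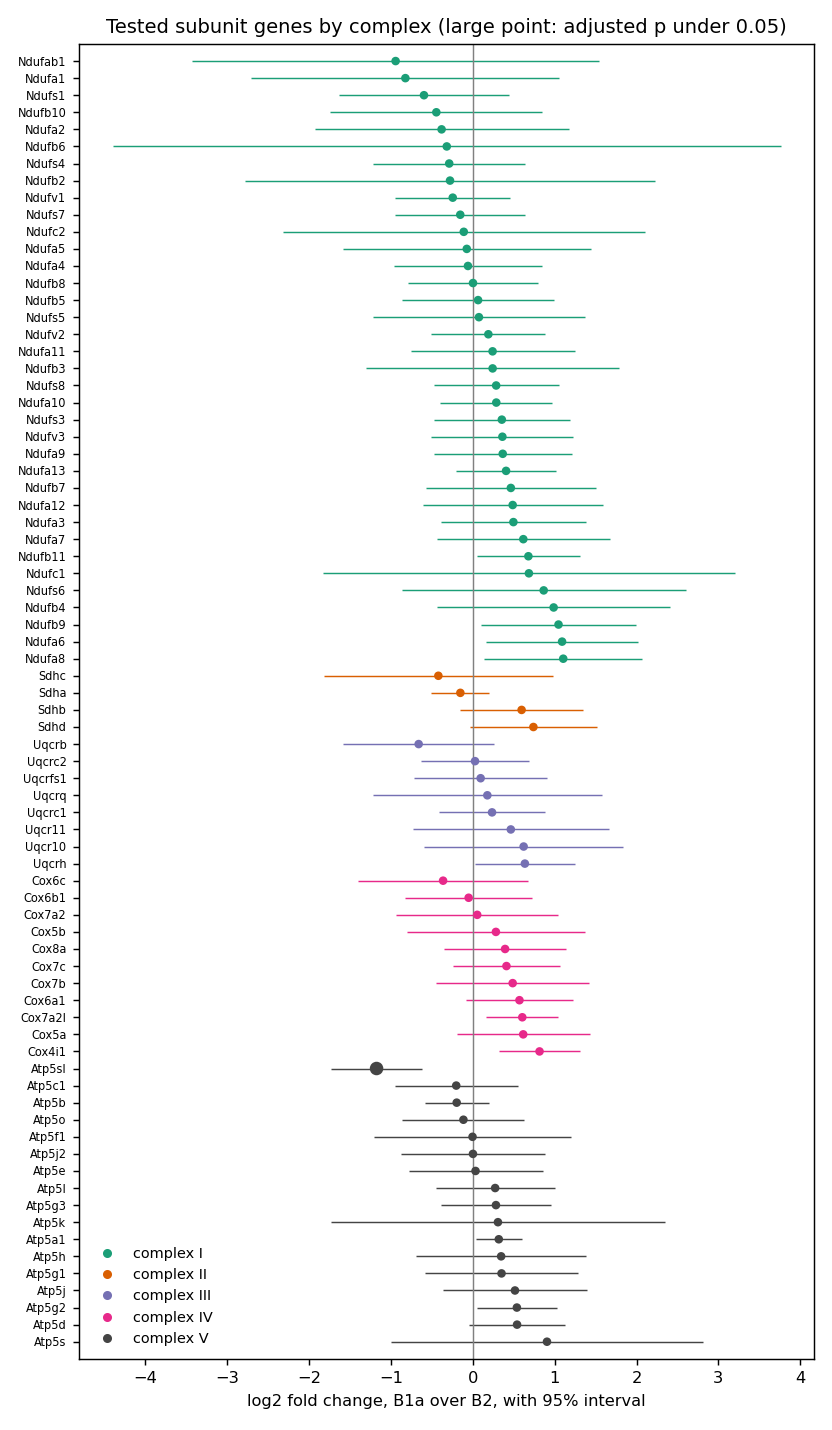
Log2 fold change of B1a over B2 cells for the tested subunit genes except 1 that is not shown, with 95% intervals from edgeR's quasi-likelihood test, grouped by complex and sorted within each. The interval of Atp5sl, the large point, runs from -1.73 to -0.62, the intervals of 9 genes lie wholly above 0 without passing adjustment, and the median of 0.28 on this scale is -0.023 on the log2(TPM + 1) scale.

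The transcripts of the subunit genes are short, with a median effective length of 616 bases against 2763 bases for all tested genes, and the fold changes of all genes depended on length. Of tested genes with an effective length under 500 bases, the median log2 fold change was 0.55 over 206 genes and 0.53 over the 143 that are neither ribosomal protein nor subunit genes, while it was 0.31 over the 31 subunit genes. Between 500 and 1000 bases it was 0.13 over all genes and 0.35 over 23 subunit genes, between 1000 and 2000 bases 0.05 and 0.14 (18 subunit genes), and between 2000 and 4000 bases -0.08 and -0.15 (5 subunit genes). The shortest subunit genes thus lay below other genes of their length, and those of 500 to 2000 bases above. With the trend on length removed in the fit, the median was -0.016 over the 77 subunit genes and -0.01 over all genes.

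**Figure D3:**
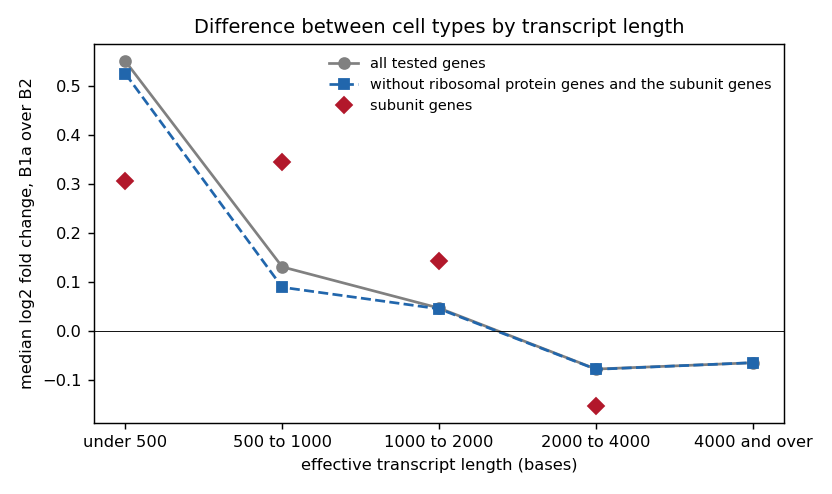
Median log2 fold change of B1a over B2 cells (vertical axis) in 5 classes of effective transcript length in bases, for all tested genes (gray), for genes without the ribosomal protein and subunit genes (blue) and for the subunit genes (red). All genes run from 0.55 in the shortest class to -0.08 at 2000 to 4000 bases, and the subunit genes run from 0.31 to -0.15.

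Complex I, NADH dehydrogenase, consists of a core shared with bacteria and of accessory subunits. The 7 nuclear-encoded core genes, which carry the flavin and the iron-sulfur clusters, summed to 497 and 555 TPM in B1a cells and to 639 and 594 TPM in B2 cells. The 31 other genes of the complex summed to 2652 and 2513 TPM in B1a cells and to 2354 and 2381 TPM in B2 cells. On this scale the groups did not overlap for either set, with the core lower and the accessory set higher in B1a cells. The sums of the core overlapped on the CPM scale, at 237 and 307 CPM against 298 and 289 CPM, and on the TPM scale without ribosomal protein and histone genes, at 645 and 731 TPM against 763 and 714 TPM, whereas the accessory sums did not overlap on either. Within TPM, the ratio of core to accessory transcripts was 0.187 and 0.221 in B1a cells and 0.272 and 0.249 in B2 cells. The median log2 fold change was -0.15 over the 7 core genes and 0.26 over the 30 tested accessory genes, which are shorter, with a median effective length of 508 against 1490 bases. With the length trend removed, the medians were -0.23 and 0.01. None of the 37 tested genes of complex I was called, and 4 had an unadjusted p under 0.05, all higher in B1a cells, a share near the 11.7% of all tested genes.

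Ndufs1, the largest core subunit, lay at 26.5 and 64.3 CPM in B1a cells and at 68.5 and 68.8 CPM in B2 cells, with a log2 fold change of -0.60 (95% interval -1.64 to 0.45). Its B1a libraries differed more from each other than the higher of them did from B2 cells. Ndufv1, which binds NADH, lay at 32.3 and 30.4 CPM against 39.7 and 34.6 CPM, with a log2 fold change of -0.24 (-0.94 to 0.46). The groups did not overlap for either gene, and neither passed the test. Of the 7 core genes, these 2 lay wholly below B2 cells in both B1a libraries, and 2 others lay wholly above. Among all tested genes the shares were 29% below and 25.3% above.

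The most abundant members of complex I were Ndufa3, Ndufa6 and Ndufb11, with means of 209, 154 and 139 TPM. Ndufa3, an accessory subunit of the membrane arm, lay at 29.9 and 25.1 CPM in B1a cells and at 18.0 and 21.0 CPM in B2 cells, with a log2 fold change of 0.50 (-0.39 to 1.38). Ndufa6, an accessory subunit of the LYR family that binds the acyl carrier protein and whose promoter is printed above, lay at 52.8 and 31.7 CPM against 21.9 and 17.8 CPM, with a log2 fold change of 1.09 (0.16 to 2.02). Ndufb11, an accessory subunit of the membrane arm, lay at 50.4 and 58.6 CPM against 36.2 and 31.9 CPM, with a log2 fold change of 0.68 (0.05 to 1.31). In all of these 3 genes the B1a libraries lay above both B2 libraries, and edgeR's adjusted p was 0.523, 0.180 and 0.209, respectively.

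Ndufa8 (chr2:36036324-36049338), an accessory subunit with disulfide-bonded cysteine motifs, had the highest log2 fold change of the 77 genes. It lay at 27.3 and 27.2 CPM in B1a cells and at 13.7 and 11.6 CPM in B2 cells, and its log2 fold change was 1.10 ± 0.394 (SE) with an edgeR adjusted p of 0.188. Its B1a libraries were nearly equal and both about 2-fold above the B2 libraries. Ndufb9, another accessory subunit, showed a like difference, at 37.4 and 26.4 CPM against 14.4 and 16.5 CPM, with a log2 fold change of 1.05 (0.10 to 1.99). The most negative value in the complex was that of Ndufab1, the mitochondrial acyl carrier protein, at -0.94 (-3.43 to 1.55). Ndufab1 lay at 11.1 and 1.80 CPM in B1a cells and at 8.24 and 16.6 CPM in B2 cells, so the groups overlapped and the interval spanned both directions.

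Complex II, succinate dehydrogenase, also works in the citric acid cycle. Sdha, the flavoprotein that oxidizes succinate, lay at 165 and 176 CPM in B1a cells and at 178 and 200 CPM in B2 cells, with a log2 fold change of -0.15 (-0.51 to 0.20). Sdhb, the iron-sulfur subunit, lay at 61.8 and 40.6 CPM against 32.7 and 35.0 CPM, with a log2 fold change of 0.60 (-0.15 to 1.35). Of the membrane anchors, Sdhd lay at 39.2 and 34.5 CPM in B1a cells and at 23.6 and 20.5 CPM in B2 cells, without overlap and with a log2 fold change of 0.74 (-0.04 to 1.52). Sdhc lay at 9.41 and 27.4 CPM against 24.4 and 24.9 CPM, with overlap and a log2 fold change of -0.42 (-1.82 to 0.98). None of the 4 passed the test, and the lowest edgeR adjusted p among them was 0.261, for Sdhd. The interval of Sdha lay within a 2-fold difference in either direction.

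In complex III, cytochrome bc1, the small acidic hinge subunit Uqcrh had the highest level, with a mean of 359 TPM, followed by Uqcrc1, a core subunit, with 138 TPM, and Uqcrb, a ubiquinone-binding subunit, with 134 TPM. Uqcrh (chr4:116066965-116075070) lay at 96.0 and 72.8 CPM in B1a cells and at 48.4 and 60.2 CPM in B2 cells, with a log2 fold change of 0.64 (0.03 to 1.24) and an edgeR adjusted p of 0.220. Uqcrb (chr13:66900576-66905350) lay at 15.4 and 19.9 CPM against 26.1 and 29.7 CPM, with a log2 fold change of -0.66 (-1.58 to 0.26) and an edgeR adjusted p of 0.398. These were the highest and the most negative value of the complex, and in both genes the groups did not overlap. Uqcrc1 lay at 74.6 and 117 CPM against 76.4 and 86.5 CPM, with overlap. Uqcrh overlaps an annotated pseudogene, Gm12854, and the division of reads between them was not tested. The other 5 genes, Uqcr10, Uqcr11, Uqcrfs1, Uqcrc2 and Uqcrq, had log2 fold changes between 0.03 and 0.62.

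In complex IV, 9 of 11 tested genes had a positive log2 fold change, against 48.5% of all tested genes. That share was 74.3% for genes with an effective length under 500 bases and 57.9% between 500 and 1000 bases. In 6 of the 11 both B1a libraries lay above both B2 libraries, against 25.3% of all tested genes. By edgeR 0 were called, against 5.74% of all tested genes, which in 11 genes is less than 1 gene. With the length trend removed, the 11 values ran from -0.73 for Cox6c to 0.52 for Cox4i1, and the middle value was -0.0019, for Cox8a. After Cox4i1, the most abundant members were Cox7a2l and Cox8a, with means of 331 and 306 TPM. Cox7a2l (chr17:83501917-83514333), known for linking complexes III and IV into supercomplexes, lay at 184 and 144 CPM in B1a cells and at 109 and 107 CPM in B2 cells, with a log2 fold change of 0.60 ± 0.180 (SE) and an edgeR adjusted p of 0.134. Cox8a, the smallest subunit, lay at 50.9 and 82.7 CPM against 55.3 and 46.5 CPM, with overlap. Cox6c, a subunit of the membrane part, had the most negative value of the complex, -0.36 (-1.41 to 0.68), at 33.5 and 16.8 CPM against 30.3 and 34.4 CPM.

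The isoform families of complex IV were represented in both cell types by the forms known from most tissues. Cox4i1, Cox6a1, Cox6b1, Cox7a2, Cox7a2l, Cox7b and Cox8a were present in every library, at levels from 56.5 TPM to 623 TPM. Cox6a1, whose promoter is printed above, lay at 51.0 and 44.9 CPM in B1a cells and at 34.6 and 30.0 CPM in B2 cells. Cox4i2, Cox7b2 and Cox8c, known from lung or testis, had 0 counts in all 4 libraries, which allows up to 0.272 CPM in the shallowest. Cox6a2, Cox7a1 and Cox8b, known as the heart and muscle forms, had at most 8 counts in any library, and the testis form Cox6b2 had 0 and 0 counts in B1a cells and 2 and 16 counts in B2 cells. Ndufa4l2, a relative of Ndufa4 known from hypoxic cells, had 4 counts in 1 B2 library and 0 in the other 3, whereas Ndufa4 lay between 110 and 164 TPM. These 8 genes did not have enough counts for a test, and at this depth a level under the floor could not be told from none.

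In complex V, the catalytic head contains the subunits alpha (Atp5a1) and beta (Atp5b). Atp5b had the highest mean level of the complex, 419 TPM, and lay at 254 and 311 CPM in B1a cells and at 298 and 349 CPM in B2 cells, with a log2 fold change of -0.20 (-0.59 to 0.19). Atp5a1, with a mean of 332 TPM, lay at 348 and 357 CPM against 284 and 281 CPM, with a log2 fold change of 0.32 (0.03 to 0.60) and an edgeR adjusted p of 0.194. The libraries of Atp5b overlapped and those of Atp5a1 did not, and both intervals lay within a 2-fold difference in either direction. On the TPM scale Atp5b had the highest mean of the 85 genes in B2 cells, and 4 genes lay above it in B1a cells.

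The c ring of complex V is encoded by Atp5g1, Atp5g2 and Atp5g3, whose products are the same after removal of the targeting peptide. Atp5g2 gave 58.0% and 59.6% of their transcripts in B1a cells and 55.3% and 55.1% in B2 cells. Atp5g3 gave 25.8% and 27.3% against 31.0% and 27.2%, and Atp5g1 gave 16.2% and 13.0% against 13.7% and 17.8%. The share of Atp5g2 was higher in both B1a libraries by a few percentage points, and the shares of the others overlapped. Atp5g2 lay at 96.5 and 83.4 CPM in B1a cells and at 63.7 and 60.2 CPM in B2 cells, with a log2 fold change of 0.54 (0.05 to 1.03) and an edgeR adjusted p of 0.203. Atp5s, coupling factor B, had the highest value of the complex, 0.91 (-1.0 to 2.81), at 7.08 and 14.7 CPM against 5.20 and 6.43 CPM.

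**Figure D4:**
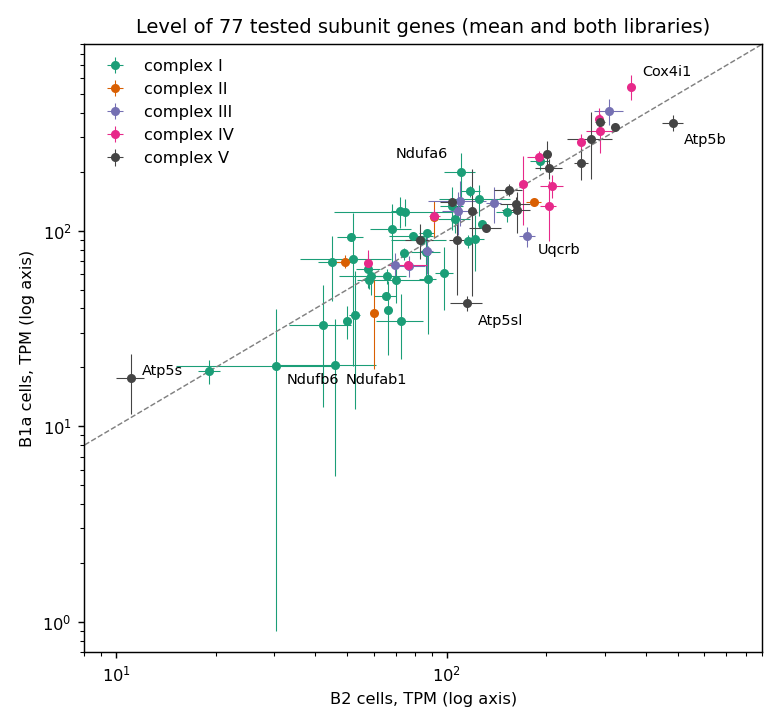
Mean level of each of the 77 tested subunit genes in B2 cells (horizontal) and B1a cells (vertical) in TPM on log axes, with lines that span both libraries of each cell type and a dashed line of equal levels. Cox4i1, with a mean of 453 TPM over all libraries, stands at the top above the line, Atp5sl lies below it, and the longest vertical line is that of Ndufb6, from 0.900 to 39.6 TPM in B1a cells.

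The order of levels among the subunit genes was alike in both cell types, with a Spearman correlation of 0.879 between the B1a and B2 means over the 77 tested genes, given as a description because the genes share libraries, lengths and base composition. Between the B1a libraries it was 0.772 and between the B2 libraries 0.927. The counts of 16 members (20.8%) differed more than 2-fold between the B1a libraries, against 29.2% of all tested genes, and those of 2 members (2.60%) between the B2 libraries, against 6.38%. Ndufb6 had 2 and 90 counts in the B1a libraries, Ndufc1 202 and 34, Ndufab1 124 and 20, Ndufb2 114 and 23, and Atp5k 217 and 50. These 5 are accessory subunits or small subunits with low counts, and B1a replicate 1 was the higher library in 4 of them. In all the rest of the 16 members B1a replicate 2 was the higher library. Among these were the core subunit Ndufs1, with 296 and 715 counts, Atp5h, with 442 and 997, and Sdhc, with 105 and 305. The genes named in this paragraph were chosen after their values were seen.

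The genes around the complexes gave 0 calls with edgeR in any of 5 lists, against 5.74% of all tested genes. At an unadjusted p under 0.05, the counts below stand against 11.7% of all tested genes as higher and 9.22% as lower in B1a cells. Of 41 tested assembly factors, 2 were higher and 3 lower in B1a cells at an unadjusted p under 0.05, the median log2 fold change was -0.17, and DESeq2 called only Uqcc2, an assembly factor of complex III, as lower. Uqcc2 lay at 0 and 0.360 CPM in B1a cells and at 7.29 and 5.07 CPM in B2 cells, and Lyrm7, another factor of complex III assembly, at 0 and 0 CPM against 2.17 and 1.10 CPM. Both genes lay at or near the floor in B1a cells, with an edgeR adjusted p of 0.201 and 0.185. Of 22 tested electron carriers and exchangers, 3 were higher and 0 lower at an unadjusted p under 0.05, with a median of 0.05, and DESeq2 called Ucp2, an uncoupling protein abundant in immune cells, as higher. Cyc1, which encodes cytochrome c1 of complex III but does not carry the Uqcr prefix, lay at 37.2 and 40.5 CPM in B1a cells and at 39.8 and 35.4 CPM in B2 cells, and Cycs, cytochrome c, at 35.7 and 42.4 CPM against 37.9 and 41.6 CPM. Neither differed beyond the spread of the libraries.

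Of 20 tested genes of pyruvate entry and the citric acid cycle, 1 was higher and 0 lower at an unadjusted p under 0.05, with a median of -0.03, and DESeq2 called 0. Cs, citrate synthase, lay at 173 and 147 CPM in B1a cells and at 154 and 166 CPM in B2 cells. Of 77 mitochondrial ribosomal protein genes, 2 were higher and 0 lower, with a median of -0.05, and DESeq2 called Mrpl52 as higher. Of 15 tested regulators of mitochondrial biogenesis and mitochondrial DNA expression, 0 were higher and 2 lower, 3 had a positive log2 fold change, and the median was -0.34, or -0.38 with the length trend removed. Both B1a libraries lay below both B2 libraries for 7 of them and above for 1, against 29% and 25.3% of all tested genes, and DESeq2 called 0. The 2 lower ones were Esrra, an estrogen-related receptor, at 17.0 and 29.2 CPM in B1a cells and 52.4 and 40.7 CPM in B2 cells, and Yy1, at 43.8 and 76.2 CPM against 96.8 and 111 CPM. Nrf1 lay at 78.3 and 61.1 CPM against 101 and 94.98 CPM and Gabpa at 47.8 and 78.2 CPM against 78.0 and 97.9 CPM. Each of these 4 factors, whose motifs were counted in the promoters above, had a negative log2 fold change that did not pass edgeR's test, with adjusted p-values of 0.201, 0.210, 0.258 and 0.438, respectively.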

How the data were processed

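RNA-Seq libraries of wild-type B1a (n = 2) and follicular B2 cells (n = 2) were analyzed, grouped and numbered by their labels. Reads were mapped to mm10 and assigned to RefSeq genes by RSEM (1.25.0 in the methods, 1.2.29 in the submitters' processing notes). For 21970 gene entries the authors deposited expected counts, not normalized, and TPM, scaled to the same total in each library. The deposited signal column, a posterior standard deviation per count, was at most 0.159 of the square root of the count in the 75 tested members with 1 entry. Per the file headers, other columns (effective length, transcript names) were also deposited. The 89 entries of the 85 members, 4 of them for Ndufa7 and 2 for Uqcrc1, were summed by symbol. Mitochondrially encoded genes were not analysed here, and 1 member is counted but not reported on its own.

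Summed counts were rounded, filtered with filterByExpr, scaled by TMM (factors 0.963 to 1.05) and compared by the quasi-likelihood test of edgeR (version 4.0.16, limma 3.58.1, R 4.3.3), without a replicate block, with Benjamini-Hochberg adjustment and a threshold of 0.05. Intervals cover 95%. EBSeq, used in the study, was not run. The methods name 2 wild-type mice per cell type, and p-values measure the spread between these libraries. The test was tested on simulated data. Named are members called, the 3 most abundant and the most extreme fold changes per complex, isoform families, all of complex II, members without a test, and others said to be chosen later (Ndufs1, Ndufv1, Ndufb9 and the promoters included). Members and lists were chosen with earlier results of these data known. Positions and promoters are from RefSeq on GRCm38.p6, where all 85 members matched, 3 of them under an older symbol. In all, 27 members overlap another gene. Alternatives were DESeq2 1.42.0, other scalings, filters and scales, limma-voom, a replicate block, unsummed entries and each replicate left out.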

Additional observations from a re-analysis of the deposited data

How the results depend on the processing

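Of 1308 values of single members under alternatives, 1120 kept their direction and side of the threshold, and 129, of 36 members, changed sign without being called in either fit. A further 54 passed the threshold only under the alternative and 4 lost it. The 1 that changed sign and was called was the log2 fold change of Atp5f1, which was -0.0031 with all libraries, 0.57 without B1a replicate 1 and -0.97 without B1a replicate 2, and its B1a libraries lay at 28.1 and 81.8 CPM. Of all tested genes 693 were called, against 1562 with DESeq2, 1415 with limma-voom weights for each cell type, 1141 without a filter beyond 1 count, 359 on log2(TPM + 0.1) and 202 on log2(TPM + 1) without a filter. Members called higher in B1a cells numbered 1 (Cox4i1) instead of 0 with DESeq2, cell type weights and no filter. Members called higher in B2 cells numbered 0 instead of 1 on log2(TPM + 1) without a filter and with the length trend removed. The members' median of 0.28 became -0.023 on log2(TPM + 1), -0.024 on log2(TPM + 0.1), -0.051 on log2(TPM + 1) without a filter and -0.016 with the length trend removed. The cause of these shifts was not tested. The members' median minus that of all genes was 0.31 with DESeq2, 0.27 on log2(TPM + 1) and -0.01 with the length trend removed. Of the 693 genes, 512 were higher in B1a cells, against 410 of 656 with library totals only, 266 of 499 on log2(TPM + 1) and 196 of 359 on log2(TPM + 0.1).

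With the replicate number as a block, 1481 genes were called, 1 member (Cox4i1, adjusted p = 0.0115) was higher in B1a cells and Atp5sl stayed the 1 member higher in B2 cells. The numbers did not pair the samples (correlation of deviations -0.0347).

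With each replicate left out in turn, 547 to 6241 genes, 0 to 19 members higher in B1a cells and 0 to 13 higher in B2 cells were called, and the members' median ran from 0.16 to 0.34. Without B1a replicate 1, 4064 genes were called, and without B1a replicate 2, 6241. Each of these fits holds 1 B1a library. The log2 fold change of Atp5sl was -1.28 without B1a replicate 1 and -1.07 without B1a replicate 2, and that of Cox4i1 was 1.01 and 0.59, respectively. With a minimum of 1 on the size of the log2 fold change, Atp5sl stayed the member called. With 2 libraries per cell type and the spread of the B1a libraries, most intervals reach a 2-fold difference.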
